A study of Mus musculus with 6 samples.

Results

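The 10 genes described here encode enzymes and cofactors that remove the RNA cap and degrade RNA from its 5′ end: Dcp1a, Dcp1b, Dcp2, Dcps, Dxo, Edc3, Edc4, Xrn1, Xrn2 and Lsm1. They were chosen by symbol and matched to the count tables by Ensembl gene identifier, which found 10 of 10 among 46983 genes. Lymph node cells were sorted with a gate for live naïve CD4 T cells that included TCRb+ CD4+ CD44- DAPI-, and their RNA was depleted of rRNA and sequenced in 3 Control and 3 Rnmt cKO libraries. RNMT methylates the cap guanosine of RNA polymerase II transcripts, and the comparison asks which transcripts depend on it in resting T cells. All libraries were labelled as male mice on a C57B6/J background, and both groups carried Rnmt alleles with exon 3 flanked by loxP sites (Rnmt fl/fl). Control animals were CD4cre - and Rnmt cKO animals were CD4cre +, so Cre and the loss of Rnmt cannot be told apart in this design. CD4-Cre acts from the double positive stage of thymocyte development, which means that the cells had matured after deletion. Ages were not given in the sources used here. The study describes the replicates of these libraries as mice of each genotype, while the labels give only replicate numbers.

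The methylated guanosine cap protects the 5′ end of an mRNA, and its removal commits most cytoplasmic mRNAs to decay. In that pathway the tail is first shortened, the LSM1-7 ring and its partner PATL1 bind the shortened end, DCP2 cuts the cap with the help of DCP1, EDC3 and EDC4, and XRN1 digests the body of the RNA in the 5′ to 3′ direction. XRN2 is the nuclear counterpart of XRN1 and acts in transcription termination and rRNA processing. DXO removes incomplete caps, such as those that lack the guanosine methyl group, and DCPS hydrolyses the short capped fragment that is left after decay from the 3′ end. These last roles are why the genes are of interest in cells that lack a cap methyltransferase. None of what follows measures decay, since only the RNA level of each gene was sequenced.

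The annotated 5′ ends of these genes are shown first because the first transcribed base sits next to the cap that RNMT methylates. RefSeq start sites on GRCm38.p6 were at hand for 7 of the 10 genes. Each line gives the 24 bases before the start in lower case and the first transcribed base as the capital letter, read 5′ to 3′ on the gene's strand.
Dcp1a, chr14:30479541-30479565, plus strand: ttagctgaagtaccacgctcggcaA
Dcp1b, chr6:119175229-119175253, plus strand: ctcgctcgctcggcggtcgattgaG
Edc3, chr9:57708545-57708569, plus strand: cactccgggtaggccgagacgcggG
Edc4, chr8:105880857-105880881, plus strand: ttgtaggttccgggagcgaaggtcA
Xrn1, chr9:95954736-95954760, plus strand: ccacggtttgctctatggtctggcG
Xrn2, chr2:147012975-147012999, plus strand: catcccccgcggtggtggtatgacG
Dcps, chr9:35175987-35176011, minus strand: ggaggcttcttcgtgcaggcgggtA
The first base was A in 3 of the 7 genes (Dcp1a, Edc4 and Dcps), G in the other 4 (Dcp1b, Edc3, Xrn1 and Xrn2), and C or T in 0. Over all 32851 RefSeq entries of the same kind the shares were 34.4% A, 35.6% G, 16.3% C and 13.7% T. A start at C followed by further pyrimidines in a run of at least 5 bases, the form found in terminal oligopyrimidine mRNAs, was present in 0 of the 7 genes and in 2.51% of all entries. The letters TATAAA, searched on the transcribed strand in the 50 bases before the start, were in 0 of the 7 genes and in 2.63% of all entries. RefSeq and GENCODE vM21 placed the start at the same base for Dcp1b, Edc4 and Xrn1, whereas RefSeq lay downstream by 3 bases for Xrn2, 29 for Edc3, 30 for Dcp1a and 74 for Dcps. Starts used in T cells were not measured by these libraries, so the letters describe the annotation only.

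Sense counts assigned to genes ran from 8873413 to 11277764 per library. The share of uniquely mapped reads that fell in no annotated gene varied within both groups, from 36.1% to 46.1% in Control and from 31.8% to 47.9% in Rnmt cKO, and Rnmt cKO library 3, with the lowest share, stood apart from the other Rnmt cKO libraries (chi-square per degree of freedom 22.1 and 22.9, against 3.64 between libraries 1 and 2). Control library 1 likewise differed more from Control libraries 2 and 3 (10.3 and 13.3) than these did from each other (4.17). Rnmt itself had 51.5, 58.7 and 57.9 CPM (counts made comparable between libraries with TMM factors) in Control and 42.0, 37.5 and 26.6 CPM in Rnmt cKO, which was lower (log2 fold change -0.67, SE 0.20, edgeR exact test adjusted p = 0.000350). Counts cover the whole gene and only exon 3 is deleted, so the remaining reads do not measure intact Rnmt. Cd4 was abundant in both groups and higher in Rnmt cKO (log2 fold change 0.35, adjusted p = 0.00491). This call was lost without Control library 2 (0.0759) and in a quasi-likelihood fit with the replicate number as a block (0.138). The 10 markers of naïve CD4 T cells, of which 2 were higher and 2 lower, summed to 5770 to 6187 CPM in Control and 6233 to 6923 CPM in Rnmt cKO. The 2 lower were Il7r (log2 fold change -0.96, adjusted p = 2.44e-17) and Cd3g (-0.44, 0.0132), named after their values were seen. Beside all marker counts in this paragraph, 6.84% of all 12336 genes tested were lower and 8% were higher (edgeR exact test, adjusted p under 0.05). Of the other cell types, B cell markers summed to 43.5 to 51.5 CPM in Control and 57.3 to 97.8 CPM in Rnmt cKO with 5 of 8 higher, myeloid markers to 213 to 271 and 196 to 248 CPM with 1 of 5 tested higher (Lyz2, 2.75 and 8.31 CPM), and CD8 T cell markers to 21.7 to 23.3 and 13.5 to 17.3 CPM with 2 of 2 lower. Most of the myeloid sum was Ctss (208 CPM in Control and 184 CPM in Rnmt cKO). The other tested myeloid markers were Cst3 (20.5 and 20.5 CPM), Cd68 (1.20 and 2.40 CPM) and Itgam (1.06 and 1.65 CPM). These 4, named after their values were seen, did not pass the threshold. The call of Cd8a (log2 fold change -0.87, adjusted p = 0.0482) was lost in 12 of 16 alternatives, among them DESeq2 (0.202) and leaving out any Control library or Rnmt cKO library 1 or 2 (0.0981 to 0.271). Markers of activated or cycling T cells summed to 237 to 255 CPM in Control and 422 to 487 CPM in Rnmt cKO, with 5 of 8 higher and 2 of 8 lower. Among them Mki67, a marker of cycling cells, had 15.2 CPM in Control and 117 CPM in Rnmt cKO. The next 5 genes were named after their values were seen. Top2a, also a marker of cycling cells, had 19.05 CPM in Control and 112 CPM in Rnmt cKO. The activation markers went both ways. Cd44 (log2 fold change -1.05, adjusted p = 1.32e-08) and Il2ra (-0.56, 0.00314) were the 2 lower genes. Tnfrsf4 was higher (0.64, 3.91e-06), and Cd69 did not pass the threshold (0.26, 0.126). None of Cd4, Cd8a, Lyz2 and Mki67 was at 0 in any library. The part of these markers in the results below was not tested, and in bulk RNA fewer cells of a type and less RNA per cell cannot be told apart.

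All 10 genes were expressed in naïve CD4 T cells, and their levels per length covered a wide range. Levels are given as RPKM, the TMM-scaled CPM divided by the exon length in kilobases, which allows genes to be compared. Xrn2 was far above the others at 85.2 ± 3.04 RPKM (SD, n = 3) in Control, the percentile 95.7 of tested protein-coding genes. Xrn1 (19.5 ± 1.65) and Edc4 (19.4 ± 1.29) followed, then Dcps (16.1 ± 0.628), Dcp1a (13.9 ± 0.468), Dcp2 (13.3 ± 0.456), Dcp1b (12.6 ± 1.21) and Dxo (10.997 ± 1.94). Lsm1 (7.93 ± 0.564) and Edc3 (6.54 ± 0.675, percentile 36.2) were the lowest of the 10. The Control libraries of Xrn1 and Edc4 overlapped, as did those of Dcp1a with Dcp2, Dcp2 with Dcp1b and Dcp1b with Dxo, so the order within those neighbours is not larger than the spread. The decapping enzyme Dcp2 and its partners Dcp1a and Dcp1b were therefore at similar levels per length, whereas the cofactor Edc3 was below every one of them in each library.

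In Rnmt cKO cells the ends of this order were the same, with Xrn2 at 98.9 ± 5.21 RPKM and Edc3 at 5.31 ± 0.288 RPKM. Between them, Edc4 (19.7 ± 0.875 RPKM) lay above Xrn1 (16.6 ± 1.24 RPKM) in every Rnmt cKO library, and Dxo (12.0 ± 1.39 RPKM) and Dcp1b (10.4 ± 2.06 RPKM) exchanged places with overlapping libraries.

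**Figure D1:**
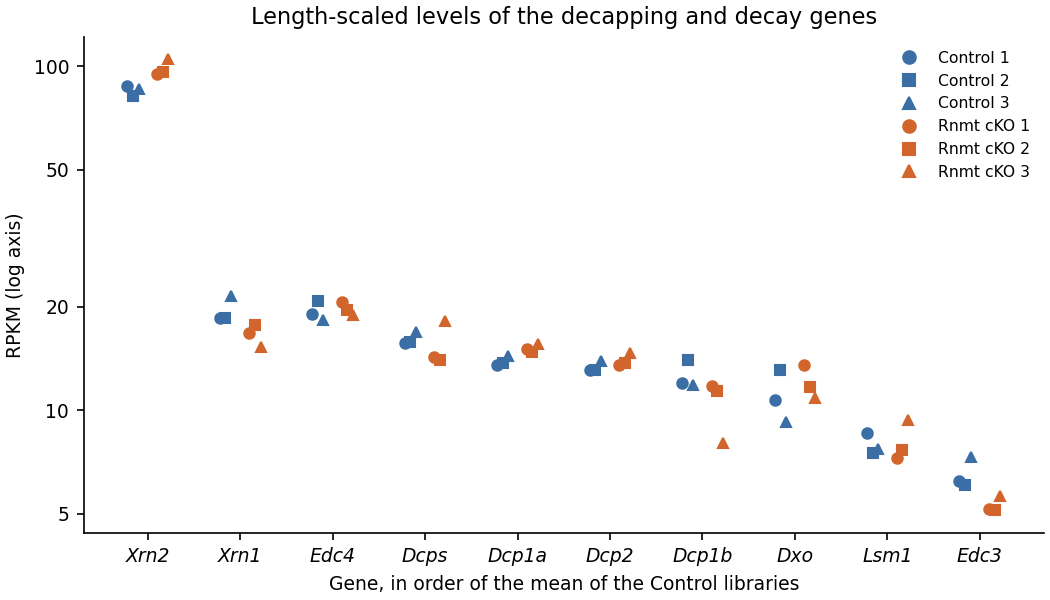
Length-scaled level (RPKM, log axis) of each gene in the 3 Control (blue) and 3 Rnmt cKO (orange) libraries, with the replicate shown by the symbol and genes ordered by the Control mean. Xrn2 lies near 85.2 RPKM in Control and 98.9 RPKM in Rnmt cKO, and the other 9 genes lie between 5.11 and 21.4 RPKM.

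No gene of the 10 passed the test between Rnmt cKO and Control. By the edgeR exact test 0 were lower and 0 were higher at an adjusted p under 0.05, beside 6.84% of all 12336 genes tested that were lower and 8% that were higher. All 10 passed the filter on low counts. At an unadjusted p under 0.05 there were 3 of 10 (Edc3, Xrn1 and Xrn2), against 25.0% of all genes tested. The quasi-likelihood test, DESeq2 and limma-trend also gave 0 lower and 0 higher. The log2 fold changes were positive for 6 genes and negative for 4, from -0.30 to 0.22, and their median was 0.03 with 0.01 over all genes tested. The 10 genes together held 913, 910 and 948 CPM in Control and 932, 937 and 951 CPM in Rnmt cKO. Every Rnmt cKO library lay above every Control library for 2 of the 10 genes (Dcp1a and Xrn2), where 16.6% of all genes tested did so, and below for 3 (Dcp1b, Edc3 and Xrn1), where 14.9% did. Groups overlapped for the other 5. This depended on the scaling. With library size alone 3 genes were above (Dcp1a, Dcp2 and Xrn2, beside 28.2% of all genes tested). Only 1 was then below (Edc3, beside 7.99%), and the groups of Dcp1b and Xrn1 overlapped.

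**Figure D2:**
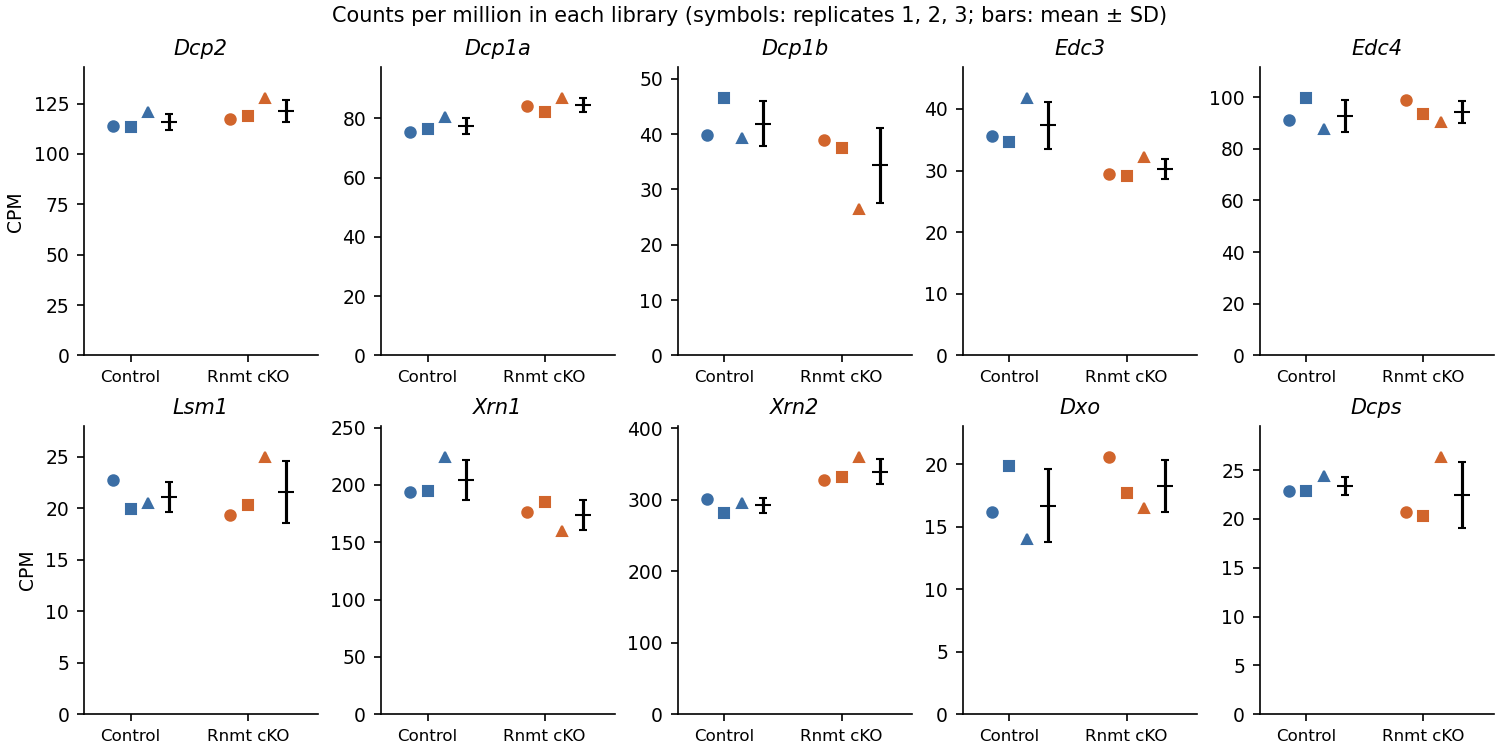
TMM-scaled counts (CPM) of each gene in each Control (blue) and Rnmt cKO (orange) library, with every axis starting at 0 and bars giving the mean ± SD of 3 libraries. The groups are apart without overlap for Dcp1a, Dcp1b, Edc3, Xrn1 and Xrn2, and overlap for the other 5 genes.

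Dcp2, the catalytic subunit of the main decapping complex (ENSMUSG00000024472, chromosome 18, 44380502 to 44424969, plus strand, GRCm38, 11 exon blocks), had 113.9, 113.6 and 120.6 CPM in Control and 117.4, 119.0 and 127.7 CPM in Rnmt cKO. The groups overlapped, and only Rnmt cKO library 3 lay above all Control libraries. Its mean was 116 ± 3.96 CPM in Control and 121 ± 5.56 CPM in Rnmt cKO, a log2 fold change of 0.07 (SE 0.05, adjusted p = 0.741). The 95% interval of that log2 difference, from limma-trend, ran from -0.10 to 0.23.

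DCP1 activates DCP2, and mice have a pair of DCP1 genes. Dcp1a (ENSMUSG00000021962, chromosome 14, 30479535 to 30527063, plus strand) had 75.5, 76.5 and 80.4 CPM in Control and 84.1, 82.2 and 86.9 CPM in Rnmt cKO. Every Rnmt cKO library was above every Control library, by a small margin. The log2 fold change was 0.12 (SE 0.04, adjusted p = 0.432, 95% interval -0.04 to 0.29). Dcp1b (ENSMUSG00000041477, chromosome 6, 119175253 to 119221616, plus strand) had 39.9, 46.5 and 39.3 CPM in Control and 39.0, 37.5 and 26.5 CPM in Rnmt cKO. Rnmt cKO libraries 1 and 2 were just below the Controls, and library 3 was well below them. The log2 fold change was -0.29 (SE 0.19, adjusted p = 0.230, 95% interval -0.62 to 0.02), and without Rnmt cKO library 3 it was -0.15 (adjusted p = 0.392).

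The balance between the DCP1 genes was compared within each library as the log2 ratio of their RPKM. Dcp1a against Dcp1b gave log2 ratios of 0.17, -0.03 and 0.28 in Control and 0.36, 0.38 and 0.96 in Rnmt cKO. All Rnmt cKO ratios lay above all Control ratios, with library 3 the highest. The means were 0.14 ± 0.160 and 0.57 ± 0.342 on the log2 scale (SD, n = 3), a difference of 0.43 with an exact two-sided permutation p of 0.10, the smallest that 3 libraries against 3 allow. That p and the order of the ratios were fixed beforehand, because the groups of Dcp1a and Dcp1b were each apart in opposite directions. Without Rnmt cKO library 3 the difference was 0.23 (exact permutation p = 0.20).

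Of the enhancers of decapping, Edc3, a scaffold that binds DCP2 and the helicase DDX6 (ENSMUSG00000038957, chromosome 9, 57708540 to 57752499, plus strand), had the smallest p of the 10 genes. It had 35.6, 34.6 and 41.8 CPM in Control and 29.5, 29.2 and 32.2 CPM in Rnmt cKO. The Rnmt cKO libraries were close together and all below the Controls. The mean was 37.3 ± 3.86 CPM in Control and 30.3 ± 1.65 CPM in Rnmt cKO, a log2 fold change of -0.30 (SE 0.09, 95% interval -0.53 to -0.07). This did not pass the edgeR exact test after adjustment over all genes (adjusted p = 0.0779). It passed with upper quartile scaling (-0.34, adjusted p = 0.0356) and without Rnmt cKO library 3 (-0.36, adjusted p = 0.0172). Over all genes these settings also called more genes lower, 1013 and 1285, against 844 in the main fit. The value was smaller with library size alone (-0.18, adjusted p = 0.336) and without Control library 3 (-0.21, adjusted p = 0.354).

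In GENCODE vM21, Edc3 shares 1284 exon bases with Clk3, a kinase gene on the opposite strand, so the opposite-strand counts over Edc3 were read beside it. These counts came to 31.5, 39.6 and 38.8 CPM in Control and 48.9, 42.3 and 40.5 CPM in Rnmt cKO. All Rnmt cKO libraries were above all Controls (exact permutation p = 0.10, the smallest possible), the reverse of the order on the Edc3 strand. Opposite-strand counts were apart in this direction for 3 of the 10 genes, namely Edc3, Dcps and, at 0 to 8 counts per library, Dcp2, and for 8.88% of all genes tested. Opposite-strand reads made up 49.7% of the reads on both strands in Control and 59.0% in Rnmt cKO, whereas over all genes their share was 4.47% to 4.97% per library. Clk3, named after its values were seen, was higher in Rnmt cKO (71.7 ± 3.997 CPM in Control and 90.5 ± 6.56 CPM in Rnmt cKO, log2 fold change 0.33, SE 0.07, adjusted p = 0.00834), a call lost in 4 of 16 alternatives, among them without Control library 1 (adjusted p = 0.0968), Control library 3 (0.0584) or Rnmt cKO library 1 (0.101). With unstranded counts, Edc3 had a log2 fold change of -0.24 (adjusted p = 0.222). In these counts, reads of bases that both genes share in the annotation used for counting are left unassigned.

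Edc4, which tethers DCP2 to XRN1 (ENSMUSG00000036270, chromosome 8, 105880881 to 105894908, plus strand), had 91.0, 99.6 and 87.7 CPM in Control and 98.8, 93.6 and 90.5 CPM in Rnmt cKO. The groups overlapped throughout, and the log2 fold change was 0.02 (SE 0.07, adjusted p = 0.938, 95% interval -0.15 to 0.20). In GENCODE vM21, Edc4 shares 458 exon bases with Nrn1l on the same strand. Reads of bases that were also shared in the annotation used for counting, GENCODE vM12, could not be assigned to either gene. Overlaps in that annotation were not examined. Lsm1, the subunit that sets the cytoplasmic LSM ring apart from the nuclear one (ENSMUSG00000037296, chromosome 8, 25785288 to 25803975, plus strand), had 22.8, 19.96 and 20.5 CPM in Control and 19.3, 20.3 and 25.0 CPM in Rnmt cKO. Its groups overlapped, with Rnmt cKO libraries at both ends of the range (log2 fold change 0.03, SE 0.13, adjusted p = 0.945, 95% interval -0.26 to 0.31).

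The 5′ to 3′ exonucleases lay in opposite directions. Xrn1, the cytoplasmic enzyme (ENSMUSG00000032410, chromosome 9, 95954760 to 96057803, plus strand), had 194.1, 194.9 and 224.4 CPM in Control and 175.9, 185.3 and 159.5 CPM in Rnmt cKO. Every Rnmt cKO library was below every Control, with library 3 the lowest. The mean was 204 ± 17.3 CPM in Control and 174 ± 13.03 CPM in Rnmt cKO, a log2 fold change of -0.24 (SE 0.09, adjusted p = 0.117, 95% interval -0.43 to -0.04). With library size alone it was -0.11 (adjusted p = 0.587).

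Xrn2, the nuclear enzyme (ENSMUSG00000027433, chromosome 2, 147012996 to 147078000, plus strand), had 301.7, 281.2 and 294.9 CPM in Control and 327.1, 331.6 and 360.0 CPM in Rnmt cKO. Here every Rnmt cKO library was above every Control, again with library 3 the farthest from the Controls. The mean was 293 ± 10.4 CPM in Control and 340 ± 17.9 CPM in Rnmt cKO, a log2 fold change of 0.22 (SE 0.05, adjusted p = 0.120, 95% interval 0.04 to 0.38). Scaling by library size alone gave Xrn2 a log2 fold change of 0.34 and moved it past the threshold (adjusted p = 0.00378), but that scaling also moved the median of all genes to 0.14 and the median of the 10 genes to 0.15.

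A ratio within a library does not depend on the scaling. The log2 ratio of Xrn1 to Xrn2, in RPKM, was -2.25, -2.14 and -2.004 in Control and -2.50, -2.45 and -2.78 in Rnmt cKO. No Rnmt cKO ratio reached the lowest Control ratio. This separation and the permutation p of the ratio were fixed beforehand, because the groups of Xrn1 and Xrn2 were each apart in opposite directions. The mean ratio was -2.13 ± 0.121 in Control and -2.58 ± 0.179 in Rnmt cKO (log2, SD, n = 3), a difference of -0.45 (exact two-sided permutation p = 0.10, the smallest possible). The pair was selected with earlier results of these data known. Leaving out each library in turn gave differences from -0.51 to -0.35.

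**Figure D3:**
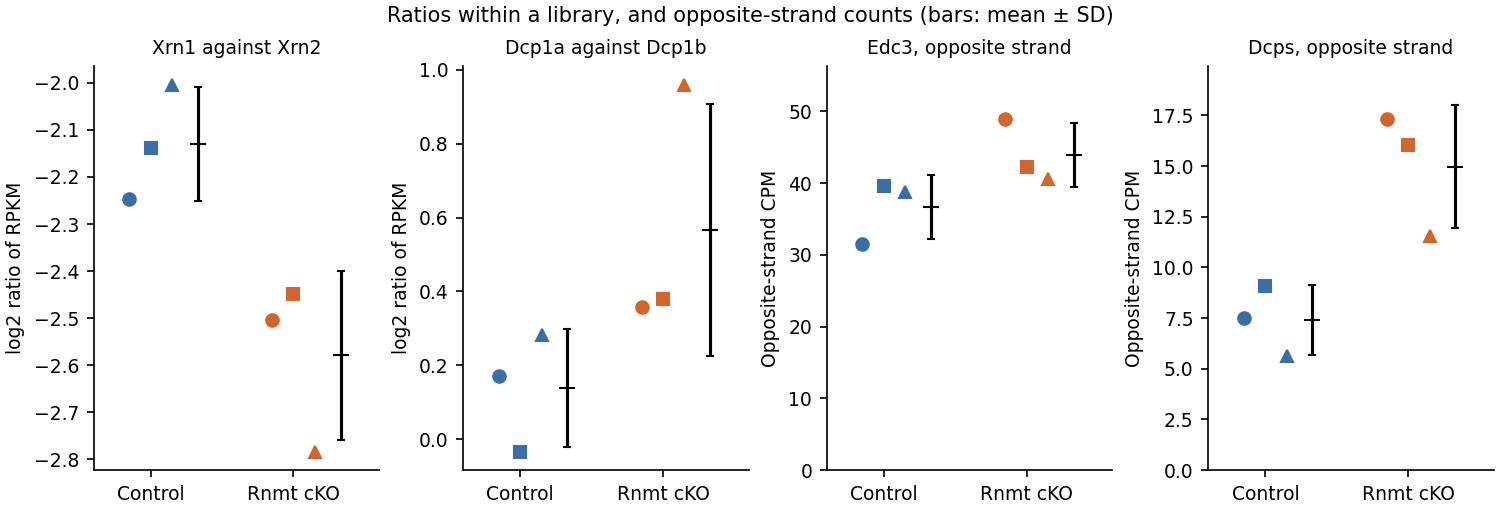
Left pair of panels, log2 ratio of RPKM within each library for Xrn1 against Xrn2 and Dcp1a against Dcp1b. Right pair, TMM-scaled CPM on the strand opposite to Edc3 and Dcps. Blue, Control; orange, Rnmt cKO; symbols, replicates 1 to 3; bars, mean ± SD of 3 libraries. In every panel the groups do not overlap, with an exact permutation p of 0.10 each. For the ratios this was fixed by the separation of each gene. Edc3 and Dcps are among the 3 of 10 genes whose opposite-strand counts were apart in this direction.

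Dxo and Dcps act on unusual caps and on cap remnants. Dxo (ENSMUSG00000040482, chromosome 17, 34837019 to 34839233, plus strand) had 16.2, 19.9 and 14.0 CPM in Control and 20.6, 17.7 and 16.5 CPM in Rnmt cKO. The groups overlapped and the Control libraries were spread more widely than for any other of the 10 genes (coefficient of variation 17.6%). The log2 fold change was 0.12 (SE 0.17, adjusted p = 0.730), with a 95% interval of -0.20 to 0.47 that leaves room for a moderate difference in either direction at 127 to 210 counts per library. It was 0.01 without Control library 3, 0.03 without Rnmt cKO library 1 and 0.27 without Control library 2.

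Dcps (ENSMUSG00000032040, chromosome 9, 35124408 to 35176061, minus strand) had 22.8, 22.9 and 24.4 CPM in Control and 20.7, 20.2 and 26.4 CPM in Rnmt cKO. Rnmt cKO libraries 1 and 2 were below the Controls and library 3 was above them. The log2 fold change was -0.06 (SE 0.12, adjusted p = 0.881, 95% interval -0.34 to 0.21), and its sign depended on the counting, since reads of either strand gave 0.13 (adjusted p = 0.686). Opposite-strand reads over Dcps came to 7.52, 9.08 and 5.63 CPM in Control and 17.3, 16.03 and 11.6 CPM in Rnmt cKO, or 24.2% and 39.8% of the reads on both strands. Each Rnmt cKO library was above each Control (exact permutation p = 0.10, the smallest possible). The non-coding gene 4930581F22Rik overlaps Dcps by 111 exon bases on the opposite strand and, named after its values were seen, was higher in Rnmt cKO (26.5 ± 3.59 CPM in Control and 52.0 ± 11.4 CPM in Rnmt cKO, log2 fold change 0.97, SE 0.23, adjusted p = 8.56e-07).

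For the other genes of the 10, opposite-strand reads were at most 5.31% of the reads on both strands in either group, so the strand-specific and unstranded values differed little.

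**Figure D4:**
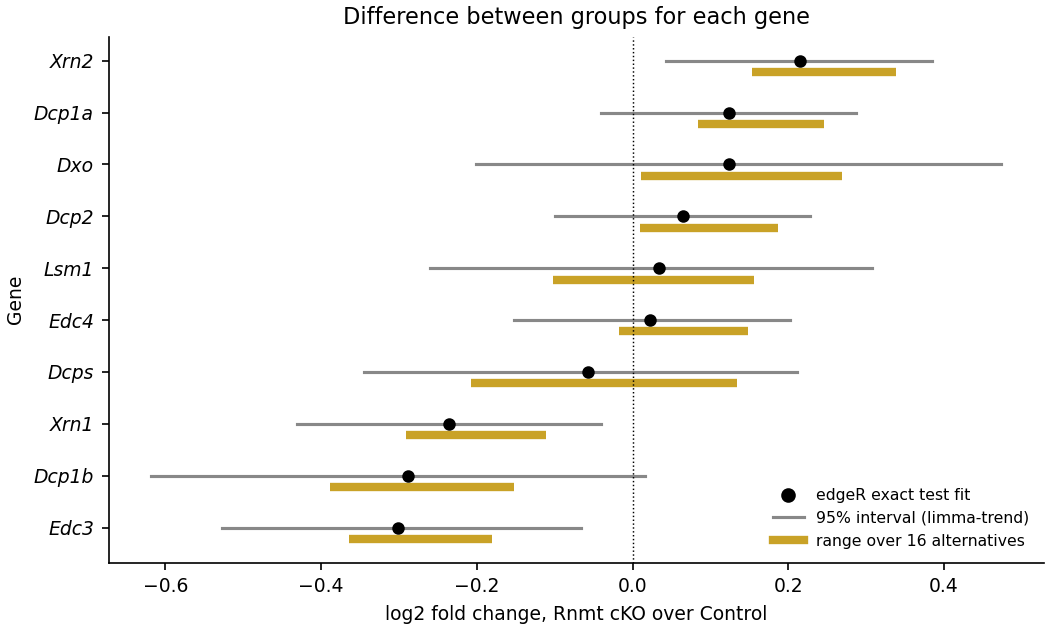
Log2 fold change of Rnmt cKO over Control for each gene, with the edgeR estimate as a point, the 95% interval from limma-trend as a grey line and the range over 16 alternative analyses as a yellow bar. Intervals exclude 0 before adjustment for Xrn2, Xrn1 and Edc3, and the yellow bars of Dcps, Edc4 and Lsm1 cross 0.

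The share of reads in no gene varied within both groups, so the groups were also compared among libraries with like shares, as values with no test. For Xrn1 the log2 ratio of Rnmt cKO over Control was -0.29 among the libraries with low shares (Control 1 and 2 against Rnmt cKO 3) and -0.31 among those with high shares (Control 3 against Rnmt cKO 1 and 2). For Xrn2 the same log2 ratios were 0.31 and 0.16. Since the groups did not overlap for either exonuclease, the sign in each set was fixed beforehand and only the size could differ. The same holds for the sign of Edc3 (-0.13 and -0.51), Dcp1b (-0.69 and -0.04) and Dcp1a (0.19 and 0.05), whose groups did not overlap either. Dxo, Dcps, Edc4, Lsm1 and Dcp2, whose groups overlapped, had opposite signs in the 2 sets. With that share as a covariate in an edgeR quasi-likelihood fit, 3 genes were lower (Xrn1 -0.26, adjusted p = 0.00421; Dcp1b -0.34, 0.0233; Edc3 -0.30, 0.0280) and Xrn2 was higher (0.22, 0.00695). The same fit called 1466 of all genes lower and 1696 higher, against 844 and 987 without the covariate, and it leaves 3 residual degrees of freedom.

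Other genes of the pathway were read from lists of decay and cap factors. Beside the counts of every list below, 6.84% of all 12336 genes tested were lower and 8% were higher. Of 14 decapping activators, the LSM ring subunits, PATL1, DDX6 and their partners, 13 were tested, 0 were lower and 1 was higher, with a median log2 fold change of 0.02. That gene was Pnrc1, whose product is a nuclear receptor coactivator and a DCP2 partner. It had 214.7, 219.2 and 212.0 CPM in Control and 334.0, 330.0 and 405.9 CPM in Rnmt cKO, well above every Control (log2 fold change 0.73, SE 0.10, adjusted p = 1.40e-09), and the call held in 16 of 16 alternatives.

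Of 14 recruiters of decapping and decay, which include AU-rich element binding proteins, roquins, nonsense-mediated decay factors and Argonaute partners, 0 were lower and 2 were higher, with a median of 0.11. Both genes encode zinc finger proteins that bind AU-rich elements and recruit decay enzymes. Zfp36 had 86.9, 87.6 and 74.6 CPM in Control and 116.3, 122.3 and 131.4 CPM in Rnmt cKO (log2 fold change 0.57, SE 0.09, adjusted p = 1.08e-06). Zfp36l1 had 119.0, 110.8 and 122.7 CPM in Control and 148.8, 162.6 and 165.1 CPM in Rnmt cKO (0.44, SE 0.06, adjusted p = 9.56e-05). Neither group pair overlapped, and both calls held in 16 of 16 alternatives.

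Of 9 other cap hydrolases and cap salvage enzymes 7 were tested, with 0 lower, 1 higher and a median of 0.04. Nudt16, a nuclear hydrolase with decapping activity, had 32.6 ± 3.89 CPM in Control and 41.7 ± 3.61 CPM in Rnmt cKO (0.35, SE 0.12, adjusted p = 0.0430). This call held in only 5 of 16 alternatives and was lost without Control library 2 (adjusted p = 0.152), Control library 3 (0.253), Rnmt cKO library 1 (0.212) or Rnmt cKO library 3 (0.0645), as well as with DESeq2 (0.125). Of 7 nuclear partners of Xrn2, 0 were lower and 1 was higher, with a median of 0.04. Ttf2, a termination factor, had 24.02 ± 3.89 CPM in Control and 33.5 ± 3.48 CPM in Rnmt cKO (0.48, SE 0.17, adjusted p = 0.0122). The call was lost without Control library 3 (0.110) or Rnmt cKO library 1 (0.105), and in the quasi-likelihood fit with the replicate block (0.0946).

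Of 13 genes of cap synthesis and cap binding, 1 was lower, Rnmt, and 1 was higher, with a median of 0.04. Larp1, which binds the cap of terminal oligopyrimidine mRNAs, had 202.0, 213.0 and 226.6 CPM in Control and 269.8, 262.1 and 262.9 CPM in Rnmt cKO. The Rnmt cKO libraries were close together and above the Controls (log2 fold change 0.31, SE 0.05, adjusted p = 0.00933). Its adjusted p was 0.108 without Control library 1, 0.0911 without Control library 2, 0.0680 without Rnmt cKO library 1 and 0.0606 without Rnmt cKO library 2. In the quasi-likelihood fit with the replicate block it was 0.119, and the call held in 11 of 16 alternatives.

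The other routes of mRNA decay were read in the same way. Of 17 listed genes of the exosome and of 3′ to 5′ decay, 16 were tested, and by the edgeR exact test 0 were lower and 0 were higher, with 1 at an unadjusted p under 0.05 and a median log2 fold change of 0.05. That gene was Exosc3, an RNA-binding subunit of the exosome (28.8 ± 2.86 CPM in Control and 35.4 ± 2.51 CPM in Rnmt cKO, log2 fold change 0.29, SE 0.10, adjusted p = 0.0971). Of 18 deadenylation genes, 0 were lower and 2 were higher, with a median of 0.11. Btg1, which stimulates the CCR4-NOT deadenylase and is abundant in resting T cells, had 899.2, 853.1 and 833.7 CPM in Control and 1238, 1301 and 1478 CPM in Rnmt cKO. All Rnmt cKO libraries were far above the Controls (log2 fold change 0.64, SE 0.08, adjusted p = 2.49e-07), and the call held in 16 of 16 alternatives. Parn, a poly(A)-specific ribonuclease named after its values were seen, was the other (48.8 ± 3.77 and 62.9 ± 2.21 CPM, log2 fold change 0.36, SE 0.07, adjusted p = 0.00485). Its call was lost without Control library 1 (0.0569) or Control library 3 (0.0583), and in the quasi-likelihood fit with the replicate block (0.0792).

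**Figure D5:**
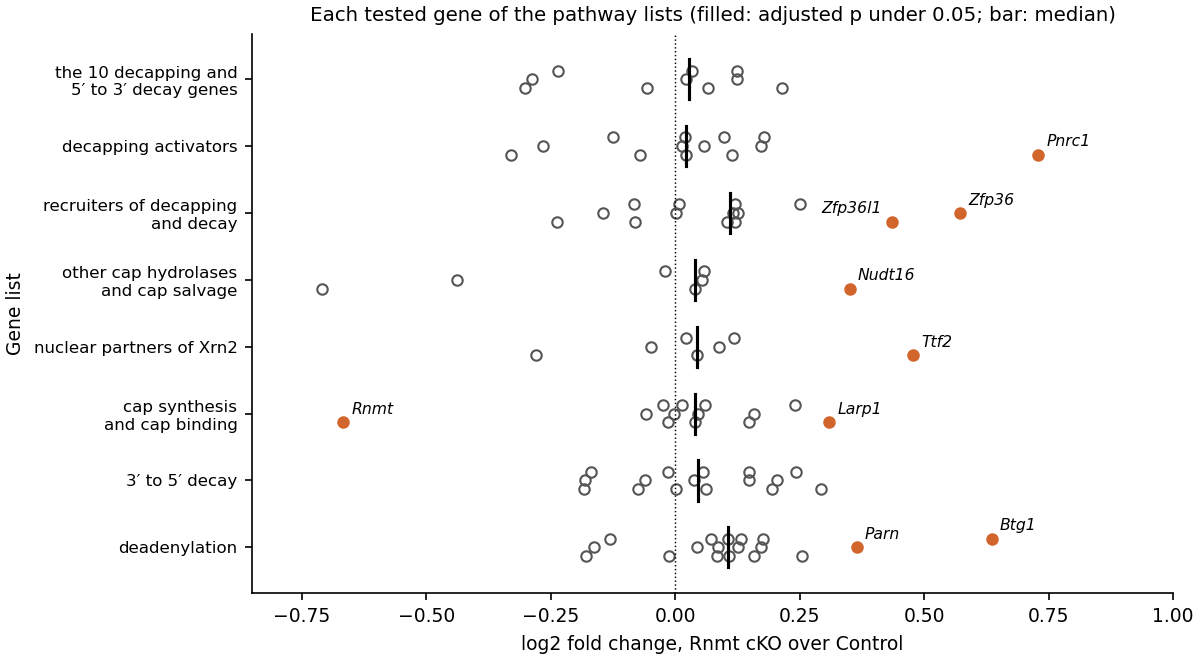
Log2 fold change (x axis, Rnmt cKO over Control) of every tested gene in each list of decay and cap factors (rows), with filled points for an adjusted p under 0.05 and a bar at the list's median. The medians lie between 0.02 and 0.11, Rnmt (-0.67) is the only filled point on the lower side, and no point of the 10 decapping and 5′ to 3′ decay genes is filled.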

How the data were processed

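Paired-end reads were aligned by the authors to mm10 with STAR 2.5.2b, guided by GENCODE vM12 (basic). Per library, the deposited tables hold raw counts per gene for either strand, for the antisense and for the sense strand. The sense column was used, since dividing it by 1 constant per library gave the normalized signal per sample that the authors deposited beside their edgeR comparison (log2 fold changes and p-values, not used). Rows that name no gene stayed out of library sizes and tests. A gene needed over 1 CPM in 3 or more libraries to be tested, and all such genes were tested across the whole table by the edgeR 4.0.16 exact test (R 4.3.3, TMM scaling, tagwise dispersions, Benjamini-Hochberg adjustment, threshold 0.05). This follows the edgeR test and the filter that the study states. A filter of over 1 CPM in all 6 libraries left 11232 genes and gave 753 lower and 845 higher, the counts that the study reports. CPM and RPKM are TMM-scaled, with exon lengths and coordinates from GENCODE vM21 (GRCm38). Standard errors come from log2 CPM with a prior count of 2, and 95% intervals from limma-trend (limma 3.58.1, chosen after seeing the data). Single values were compared by an exact two-sided permutation test over libraries. Of the gene identifiers, 46488 of 46983 were found in GENCODE vM21. Start sequences came from RefSeq.

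The 10 genes and all lists were chosen with earlier results of these data known. Named are the 10 genes, Rnmt, every gene of a pathway list past the threshold or else the one with the smallest p, the smallest-p gene of the comparison lists, and 6 markers, of which 2 are not reported here; others are marked as named after their values were seen. Alternatives were other scalings and filters, the quasi-likelihood test, DESeq2 1.42.0, unstranded counts, a replicate block, the share of reads in no gene as a covariate, limma-trend, and leaving out each library. The code was tested on simulated data.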

Additional observations from a re-analysis of the deposited data

Results flagged for a closer look

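Opposite-strand counts are data outside the main measurement, and over 3 of the 10 genes they were higher in every Rnmt cKO library than in every Control, as over 8.88% of all genes tested. Over Dcp2 they averaged 0.0333 CPM in Control and 0.457 CPM in Rnmt cKO, from 0 to 8 counts per library. Over Dcps they averaged 7.41 ± 1.73 CPM in Control and 14.974 ± 3.03 CPM in Rnmt cKO (SD, n = 3, exact permutation p = 0.10, the smallest possible). Over Edc3 they averaged 36.6 ± 4.46 CPM in Control and 43.9021 ± 4.44 CPM in Rnmt cKO (exact permutation p = 0.10). Dcps and Edc3 overlap an annotated gene on the opposite strand, 4930581F22Rik for Dcps and Clk3 for Edc3. How much of the opposite-strand signal comes from those genes was not tested.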

How the results depend on the processing

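Over 16 alternatives each, Dcp1a, Dcp1b, Dcp2, Dxo, Edc3, Xrn1 and Xrn2 kept their direction, which for the 5 genes with groups that do not overlap is no sign of stability when a library is left out. Dcps, Edc4 and Lsm1 did not: Dcps was 0.0613 with library size alone, 0.134 with unstranded counts and 0.0102 without Rnmt cKO replicate 2 (lowest -0.21, without Rnmt cKO replicate 3). Edc4 was -0.0124 with upper quartile factors and -0.0168 to 0.0768 on leaving out each library, and Lsm1 -0.0018 and -0.10 to 0.10. Of the 10 genes, 1 was higher with library size alone, 1 was lower with upper quartile factors, 3 were lower and 1 higher with the share of reads in no gene as covariate, and 0 to 1 were lower on leaving out each library. Over all genes, library size alone gave 535 lower and 1938 higher (78.4% of calls higher, against 53.9%). Upper quartile factors gave 1013 and 859, the covariate 1466 and 1696, and leaving out each library 547 to 1285 lower and 643 to 1221 higher. Library size alone also gave 2 higher decapping activators, 2 cap synthesis genes, 3 genes of 3′ to 5′ decay and 4 of deadenylation, and the quasi-likelihood test gave 0 other cap hydrolases. Leaving out each library gave 0 to 1 lower in the activators, recruiters, nuclear partners of Xrn2 and 3′ to 5′ decay, and 2 to 4 higher recruiters, 0 to 1 other cap hydrolases, 0 to 1 nuclear partners, 0 to 1 cap synthesis genes and 1 to 2 deadenylation genes. The cause of these moves was not tested.

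No sign of pairing by replicate number was seen: same-numbered deviations correlated at -0.21, -0.02 and -0.35, and no library correlated best with its own number. So few libraries cannot show that the numbers pair nothing. With the replicate block, 276 genes were lower and 431 higher, and 0 of the 10. With 3 libraries a group, intervals were widest for Dxo, Dcp1b, Dcps and Lsm1, the genes of lowest count with Edc3.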
